A study of Mus musculus with 6 samples.

Results

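The genes examined here encode the subunits of the proteasome and of its activator caps, with some chaperones of its assembly. They were taken from the deposited array table by name, as the targets whose name is PSMA, PSMB, PSMC, PSMD or PSME followed by a number, leaving out the inducible immunoproteasome genes Psmb8, Psmb9 and Psmb10. The rule found 38 of the 34492 targets on the array. These were 13 genes of the core particle, 20 of the regulatory particle, 4 of the PSME activators and 1 with tissue-restricted use, Psma8 of the testis. Counted by name among the 20 are Psmd5, Psmd9 and Psmd10, chaperones that help to assemble the ATPase ring of that particle. The rule uses names and no measured value.

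The proteasome is the large protease complex that degrades proteins marked with ubiquitin. Its core particle is a barrel of stacked rings, in which the outer rings of α subunits control entry and the inner rings of β subunits carry the proteolytic sites. The regulatory particle caps the barrel: a ring of ATPases unfolds the substrate and threads it into the core, while non-ATPase subunits bind ubiquitin and remove it. In skeletal muscle the ubiquitin-proteasome system breaks down myofibrillar proteins, and it is known for its part in muscle wasting.

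RNA came from the soleus, a slow postural muscle of the hindlimb, of male mice aged 11 months. In the genotype labelled Coco/KO, skeletal muscle α-actin was replaced by cardiac actin, per the series title, and the comparison group was wild type. Both groups carried the strain designation CBB6F1xFVB/n, and the sources used here do not state what drives the cardiac actin. Each genotype had 3 samples, each a pool of RNA from 2 soleus muscles of different mice, and every sample was read on 1 array, so p-values measure the spread between pools.

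Array 1 of the Coco/KO group stood apart from the others, with the lowest mean correlation to the other arrays (0.970, against 0.975 to 0.978). Mean intensity per array lay between 330.2 and 470.2 units, and between 11606 and 13071 targets were detected, meaning that the detection score, which is 1 minus the detection p-value, was above 0.95. The exchanged genes followed the labels. The log2 change of Acta1, the skeletal α-actin, was -4.59 in Coco/KO relative to wild type (SE 0.20, n = 3 per group, limma adjusted p = 2.96e-05), and that of Actc1, cardiac α-actin, was 2.44 (SE 0.31, adjusted p = 0.0298). All 8 slow fibre markers and all 8 fast fibre markers on the list passed the filter on dim targets. Precision is set by the small number of arrays.

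Of the 38 members, 32 passed the filter (detected on at least 3 of the 6 arrays) and were tested, and 25 were detected on all 6 arrays. The 6 members that were not tested fell into separate kinds. Psma3, Psma8 and Psmd5 were detected on no array and had mean intensities under 100 units. Psma1, Psmc6 and Psmd3, by contrast, were bright, with a lowest intensity of 617.6 units on any array, but had detection scores below 0.95 on at least 5 of the 6 arrays. Such targets were not peculiar to the proteasome, since between 86 and 186 targets per array had an intensity above 500 units without being detected. The sources used here do not state how the score of a target was summarised. The values of these 3 bright members are therefore given from the fit without the filter.

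No proteasome gene passed the threshold between the genotypes. Of the 32 members tested, 0 had a limma adjusted p under 0.05, where 18 of 12135 genes (0.148%) did, 0.0659% higher and 0.0824% lower, and the lowest adjusted p of a member was 0.420. At an unadjusted p under 0.05 there were 3 members, Psmb1, Psmb5 and Psmc2, all higher in Coco/KO, where 8.22% of all genes passed that level and 4% were higher. That count was 1 with median scaling, 0 without normalization between arrays, 1 without wild-type array 2 and 5 with modelled background or chip position. The matching shares of all genes were not computed for these settings, so they show only that the count depended on the processing. The log2 change was positive for 26 of the 32 members (81.2%), against 50.3% of all genes. The number positive was 22 without wild-type array 1 and 23 without Coco/KO array 2. The median log2 change was 0.11 over the members and 0.0014 over all genes. For 30 of the 32 members the 95% interval of the log2 change lay within 1 unit either way, the exceptions being Psmc1 and Psmd2. The members share a complex and the same 6 arrays, so these counts describe the list and carry no test.

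**Figure D1:**
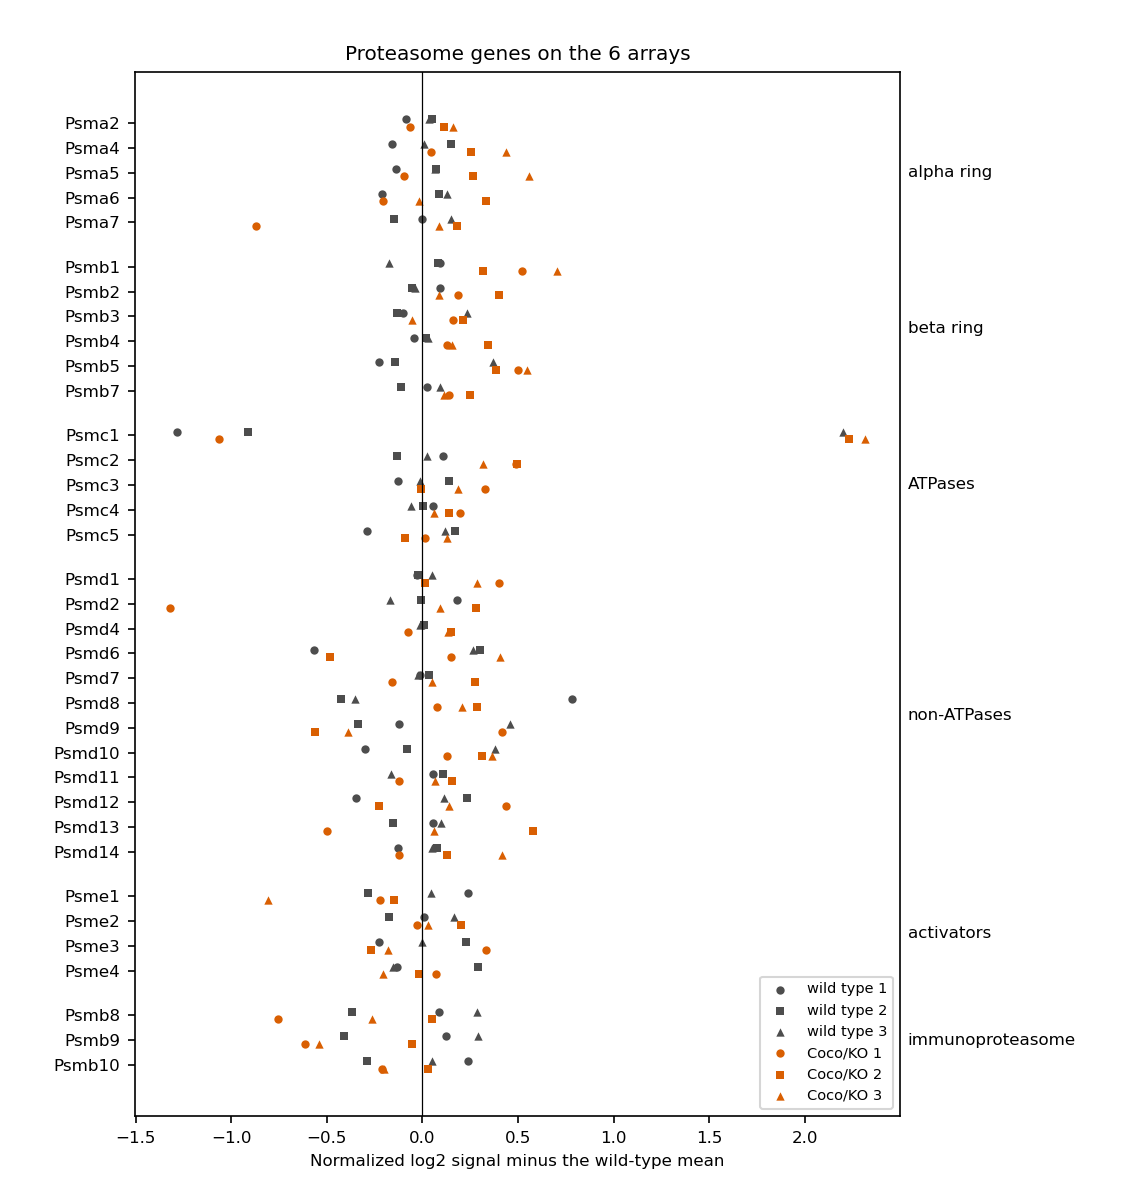
Normalized log2 signal of each tested proteasome gene, and of the 3 immunoproteasome genes for comparison, on each of the 6 arrays as a deviation from the gene's wild-type mean (horizontal axis, log2 units). Grey symbols are wild-type arrays and orange symbols Coco/KO arrays, with the shape giving the replicate. Most genes lie within 0.5 of the wild-type mean, the orange symbols of the β ring lie mostly to the right, and Psmc1 splits into arrays far apart within both genotypes.

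The 4 β-ring genes Psmb1, Psmb4, Psmb5 and Psmb7 and the 2 ATPase genes Psmc2 and Psmc4 were higher on every Coco/KO array than on any wild-type array. These 6 of 32 members (18.8%) compare with 6.16% of all genes that separated in this direction. No member separated in the opposite direction, which 6.58% of all genes did. The count depended on the normalization between arrays. With cyclic loess 5 members separated upwards, where 6.31% of all genes did, and 0 downwards. With median scaling 1 member separated upwards, where 4.24% of all genes did, and 1 downwards, and without normalization the counts were also 1 and 1, where 3.39% of all genes separated upwards. Without Coco/KO array 1 the count was 13 of 32, where 11.2% of all genes separated upwards, and 1 member was lower. It was 7 without Coco/KO array 3, where 13.1% of all genes did. Without any other single array it was 8 or 9, where 10% to 11.2% of all genes did.

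Promoter sequences were examined because of Psmb5 and Psmc2, the members of low p for which the RefSeq table holds one. Capitals mark the antioxidant response element TGACNNNGC, the site of the NFE2L1 and NFE2L2 factors that are known to drive proteasome genes, and the CCAAT box, the site of NF-Y, each searched on both strands in 250 bases before and 50 after the transcription start. The windows are from build GRCm38.p6, at chr14:54617946-54618245 on the minus strand and chr5:21785025-21785324 on the plus strand, and are written 5′ to 3′ along the gene.
Psmb5: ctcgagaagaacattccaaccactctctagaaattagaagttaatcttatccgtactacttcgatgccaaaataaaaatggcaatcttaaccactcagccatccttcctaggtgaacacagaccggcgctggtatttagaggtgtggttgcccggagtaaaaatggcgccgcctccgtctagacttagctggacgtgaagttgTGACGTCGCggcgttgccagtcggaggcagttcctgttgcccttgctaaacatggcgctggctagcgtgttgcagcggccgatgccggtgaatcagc
Psmc2: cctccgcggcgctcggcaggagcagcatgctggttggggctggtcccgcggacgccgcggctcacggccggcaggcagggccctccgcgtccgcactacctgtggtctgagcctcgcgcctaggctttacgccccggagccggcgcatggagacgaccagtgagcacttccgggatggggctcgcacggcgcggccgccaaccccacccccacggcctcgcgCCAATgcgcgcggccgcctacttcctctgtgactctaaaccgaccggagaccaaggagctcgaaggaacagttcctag
The Psmb5 window held 1 antioxidant response element, beginning 47 bases before the start, and no CCAAT box. The Psmc2 window held 1 CCAAT box beginning 28 bases before the start and no antioxidant response element, and a second window listed for Psmc2 held neither. A promoter was listed for 31 of the 38 members. The antioxidant response element was found in 5 of them (16.1%), namely Psmb5, Psmc6, Psmd9, Psmd12 and Psme4, against 14.0% of 27025 genes. A CCAAT box was found in 12 of 31 (38.7%), against 41.1% of all genes. In the core particle 6 of 10 genes with a promoter held a CCAAT box and in the regulatory particle 5 of 17. A match is a description of the letters in the window, and the shares over the members lay near those over all genes.

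The β ring held Psmb1 and Psmb5, which with the ATPase Psmc2 had the lowest p-values of the members. All 6 of its genes on the array had a positive log2 change, with a median of 0.22. Psmb1, a structural β subunit without a proteolytic site, had normalized log2 signals of 11.34, 11.33 and 11.07 on the wild-type arrays 1 to 3 and 11.77, 11.56 and 11.95 on the Coco/KO arrays. All Coco/KO values lay above all wild-type values. Its log2 change was 0.52 (SE 0.16, n = 3 per group), a 1.43-fold higher signal with a 95% interval of 0.15 to 0.88 on the log2 scale, and an unadjusted p of 0.0114 that became 0.420 after adjustment in limma. An exact permutation test of Psmb1, two-sided, returned p = 0.1, the smallest value that 3 arrays against 3 allow.

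Psmb5 carries the chymotrypsin-like site, which is the target of proteasome inhibitor drugs. Its log2 signals were 11.59, 11.67 and 12.18 in wild type and 12.31, 12.20 and 12.36 in Coco/KO. The groups did not overlap, but wild-type array 3 lay just under the lowest Coco/KO array. The log2 change was 0.48 (SE 0.18, 95% interval 0.06 to 0.89, limma adjusted p = 0.524), a 1.39-fold higher signal. Psmb7, with the trypsin-like site, had log2 signals of 13.43, 13.30 and 13.50 in wild type and 13.55, 13.66 and 13.53 in Coco/KO, again without overlap. Its log2 change of 0.17 (SE 0.14, adjusted p = 0.848) had an interval from -0.15 to 0.48. The array table analysed here has no target under the name of the other catalytic subunit, Psmb6.

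Among the other β subunits, which are structural, Psmb4 had log2 signals of 13.84, 13.90 and 13.91 in wild type and 14.01, 14.23 and 14.04 in Coco/KO. This was a narrow separation, with a log2 change of 0.21 (SE 0.14, limma adjusted p = 0.763). Psmb2 had a log2 change of 0.22 (SE 0.15) and Psmb3 of 0.11 (SE 0.16), and their groups overlapped.

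The α ring showed smaller values. Of its 7 genes on the array 5 were tested, 4 with a positive log2 change, and the median was 0.07. Psma4 had log2 signals of 12.36, 12.67 and 12.53 in wild type and 12.56, 12.77 and 12.95 in Coco/KO, with a change of 0.25 (SE 0.16, limma adjusted p = 0.769). Psma5 had a change of 0.24 (SE 0.19) and Psma2 of 0.07 (SE 0.14). In both, array 1 of Coco/KO lay among the wild-type values.

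Psma7 was the 1 core member with a negative value, and array 1 of Coco/KO set its sign. Its log2 signals were 12.08, 11.93 and 12.23 in wild type and 11.21, 12.26 and 12.17 in Coco/KO, a change of -0.20 (SE 0.27). Without that array the change was 0.13. Psma6 was dim, with intensities from 10.7 to 34.6 units, and had a change of 0.04 (SE 0.18). Psma1, 1 of the bright targets with low detection scores, had log2 signals of 10.70, 10.13 and 10.61 in wild type and 11.09, 10.95 and 10.64 in Coco/KO. In the fit without the filter its change was 0.42 (SE 0.18, limma adjusted p = 0.766), with overlapping groups.

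The ATPases form the motor ring at the base of the regulatory particle. All 5 tested genes had a positive log2 change, with a median of 0.17. Psmc2 had log2 signals of 10.30, 10.06 and 10.22 in wild type and 10.68, 10.69 and 10.51 in Coco/KO, a change of 0.43 (SE 0.14, 95% interval 0.11 to 0.76, limma adjusted p = 0.434) and a 1.35-fold higher signal. Every Coco/KO array lay above every wild-type array. Psmc4 separated as well but by little, with log2 signals of 11.05, 11.00 and 10.94 in wild type, 11.19, 11.13 and 11.06 in Coco/KO, and a change of 0.13 (SE 0.13). Psmc3 (0.17, SE 0.15) and Psmc5 (0.02, SE 0.17) overlapped between the groups. Psmc6, from the fit without the filter, had a change of -0.09 (SE 0.16).

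Psmc1, another ATPase of that ring, differed widely between arrays of the same genotype. Its intensities were 19.5, 51.7 and 838.4 units on the wild-type arrays 1 to 3 and 31.7, 654.3 and 1165.5 on the Coco/KO arrays, so 1 wild-type and 2 Coco/KO arrays were high and the other 3 were near background. The corresponding log2 signals ranged over 3.60 units, where 1.43% of all genes ranged over more than 2. The log2 change of 1.16 (SE 1.08, 95% interval -1.29 to 3.62, limma adjusted p = 0.876) has an interval that spans both directions, and it ranged from 0.52 to 2.62 over the alternatives. The beads behind the Psmc1 values were also uneven. The SD between beads was between 93.98% and 523.7% of the intensity for Psmc1, against 14.0% to 48.3% for the 25 members detected on every array. The largest values came from the arrays near background, where the intensity divided by is small, and the dim Psma6 had 103.4% to 252.1%. On the arrays where Psmc1 was high the SD was 93.98% to 108.4%. Whether this row measures the level of the transcript in all pools alike was not tested.

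**Figure D2:**
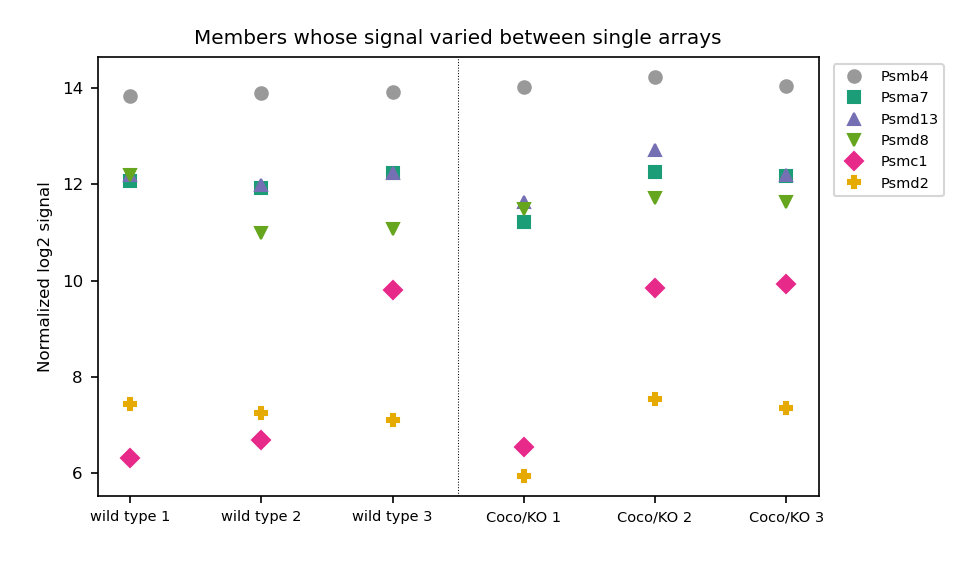
Normalized log2 signal (vertical axis) of 5 members whose signal varied between single arrays, with Psmb4 as an example of a stable member, on the 6 arrays (horizontal axis, wild type left of the dotted line and Coco/KO right of it). Psmc1 is between 9.81 and 9.93 on wild-type array 3 and on Coco/KO arrays 2 and 3 and between 6.32 and 6.70 on the others, while Psma7, Psmd13 and Psmd2 are lowest on Coco/KO array 1.

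The non-ATPase subunits make up the rest of the regulatory particle. The 14 genes counted here by name include the assembly chaperones Psmd5, Psmd9 and Psmd10. Of the 14 genes 12 were tested, 10 with a positive log2 change, and their median was 0.06. The scaffold subunit Psmd1 had log2 signals of 12.77, 12.77 and 12.85 in wild type and 13.20, 12.81 and 13.08 in Coco/KO, a change of 0.23 (SE 0.15, limma adjusted p = 0.760). Wild-type array 3 lay above Coco/KO array 2, so the groups overlapped. The other large scaffold, Psmd2, had log2 signals of 7.44, 7.25 and 7.09 in wild type and 5.94, 7.54 and 7.36 in Coco/KO. Psmd2 was dim, with intensities from 2 to 132.9 units. It was detected on all arrays but Coco/KO array 1, and its change of -0.32 (SE 0.37) was 0.18 without that array.

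Psmd4, which binds ubiquitin chains, was nearly constant over the arrays, with log2 signals of 13.42, 13.43 and 13.41 in wild type and 13.34, 13.57 and 13.55 in Coco/KO. Its change was 0.07 (SE 0.14, 95% interval -0.25 to 0.38). Psmd14, the enzyme that cuts ubiquitin off the substrate, had a change of 0.14 (SE 0.17), with the highest signal, 12.82, on Coco/KO array 3 and the others between 12.28 and 12.53. Of the chaperones that help to assemble the ATPase ring, Psmd10 had a change of 0.27 (SE 0.19) and Psmd9 of -0.18 (SE 0.29). Psmd9 was dim, with intensities from 49.5 to 198.8 units, and was not detected on Coco/KO array 2. Leaving out wild-type array 3 gave 0.0525 for Psmd9, and leaving out Coco/KO array 2 gave 0.0145. Psmd5, the chaperone that was not detected, had 0.18 (SE 0.16) in the fit without the filter.

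The remaining subunits of the lid and base had log2 changes from 0.02 (Psmd6) to 0.19 (Psmd8), all with overlapping groups. For 2 of them a single array stood out. Psmd13 was lowest on Coco/KO array 1 (11.63) and highest on Coco/KO array 2 (12.71). Psmd8 was highest on wild-type array 1 (12.20, against 10.99 to 11.70 on the other arrays), and it was not detected on array 3 of either genotype. Psmd3, from the fit without the filter, had a change of 0.05 (SE 0.11).

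The core was then set against the regulatory particle. The median log2 change was 0.21 over the 11 core genes tested and 0.12 over the 17 regulatory genes, a difference of 0.09. Without Psmc1 the regulatory median was 0.0928. The chaperones Psmd9 and Psmd10 are among the 17. Measured per array as the median deviation from the wild-type mean, the core lay at -0.09, 0.02 and 0.06 on the wild-type arrays and at 0.13, 0.26 and 0.16 on the Coco/KO arrays. The regulatory particle lay at -0.03, 7e-04 and 0.05 in wild type and at 0.07, 0.15 and 0.14 in Coco/KO. By this median both particles were higher on each Coco/KO array than on any wild-type array, by small amounts. Of their parts, the β ring and the ATPases separated in the same way. The α ring (-0.097) and the non-ATPases (-0.001) lay among the wild-type values on Coco/KO array 1. These medians per array were taken from quantile normalized values only. The share of other gene lists that separate in this way was not computed. By the mean log2 signal neither particle separated. The core had 11.83 on Coco/KO array 1 against 11.88 on wild-type array 3, and the regulatory particle 10.51 against 10.73. Psmc1 enters the regulatory mean with 6.54 on the first of these arrays and 9.81 on the second. The core mean minus the regulatory mean was 1.29, 1.29 and 1.15 in wild type and 1.33, 1.30 and 1.21 in Coco/KO. Without Psmc1 it was 1.03, 1.05 and 1.09 in wild type and 1.08, 1.25 and 1.15 in Coco/KO. The groups overlapped both with and without Psmc1. The difference between the 2 medians was not stable: without Coco/KO array 2 it was -0.0026, and with the position on the chip in the model it was 0.0091. The Coco/KO arrays lay at positions A, C and D and the wild-type arrays at B, E and F. Position and genotype were thus partly confounded in that model. Without Coco/KO array 1 the medians were 0.24 and 0.15, with 11 of 11 core and 14 of 17 regulatory genes positive. The regulatory median was 0.07 without wild-type array 1 and 0.06 without Coco/KO array 3.

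**Figure D3:**
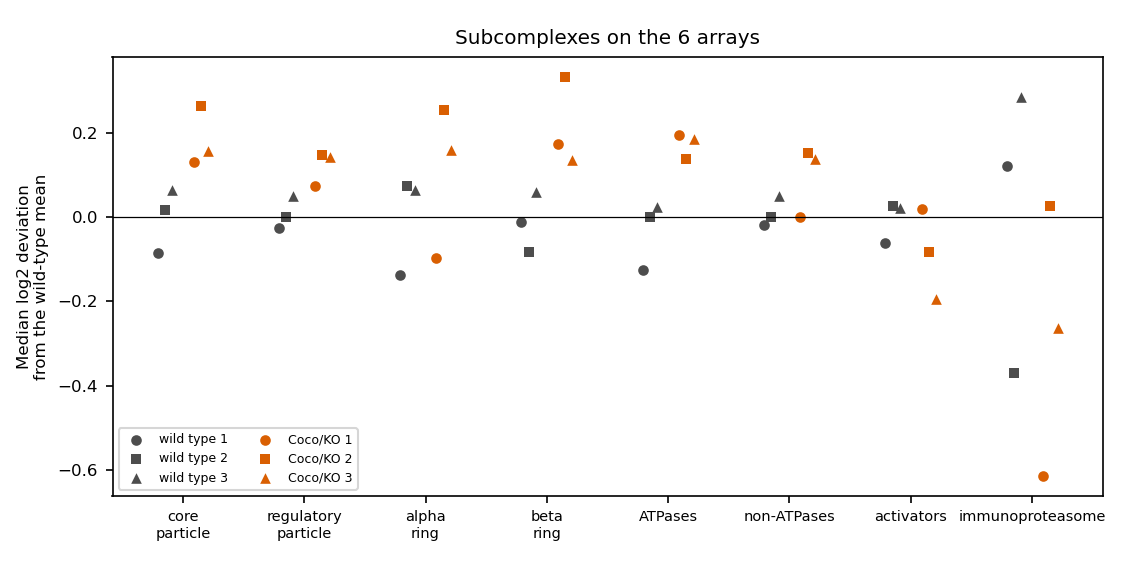
Median log2 deviation of the tested genes of each subcomplex from their wild-type means (vertical axis) on the 3 wild-type arrays (grey) and the 3 Coco/KO arrays (orange). The core particle lies between -0.09 and 0.06 in wild type and between 0.13 and 0.26 in Coco/KO. The α ring, the non-ATPases, the activators and the immunoproteasome genes do not separate by genotype.

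The PSME activators bind the core particle in place of the regulatory particle. Of the 4 genes, all tested, 3 had a negative log2 change and the median was -0.05. Psme1, a subunit of the interferon-inducible activator, had log2 signals of 11.05, 10.53 and 10.86 in wild type and 10.59, 10.66 and 10.00 in Coco/KO. The groups overlapped, with the lowest value on Coco/KO array 3, and the change was -0.39 (SE 0.22, 95% interval -0.89 to 0.10, limma adjusted p = 0.702). Its partner Psme2 had a change of 0.07 (SE 0.15), the nuclear activator subunit Psme3 of -0.04 (SE 0.20) and the large activator Psme4 of -0.05 (SE 0.17). The signs of these last 3 rested on single arrays. Psme2 was -0.0205 without wild-type array 2 and -0.0019 without Coco/KO array 2. Psme3 was 0.0744, 0.0773 and 0.0308 without wild-type array 2, Coco/KO array 2 and Coco/KO array 3. Psme4 was 0.0922 without wild-type array 2 and 0.0255 without Coco/KO array 3.

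The inducible β subunits, which replace the standard catalytic ones in cells exposed to interferon, had values of the opposite sign. Psmb8, the counterpart of Psmb5, had a log2 change of -0.32 (SE 0.24), Psmb9 of -0.40 (SE 0.23) and Psmb10, the counterpart of Psmb7, of -0.13 (SE 0.18), with overlapping groups and limma adjusted p-values from 0.709 to 0.940. The log2 ratio of Psmb5 to Psmb8, of which only the change between arrays can be read, was 1.93, 2.46 and 2.32 in wild type and 3.49, 2.57 and 3.05 in Coco/KO. The ratio thus differed by 0.80 without overlap, and its highest value was on Coco/KO array 1, the array that stood apart. The share of other gene pairs whose ratio separates in this way was not computed. For Psmb7 against Psmb10 the ratio was 3.27, 3.67 and 3.53 in wild type and 3.84, 3.71 and 3.803 in Coco/KO, a difference of 0.29. Each of the 2 pairs had an exact two-sided permutation p of 0.1, the smallest possible here, and 0.1 after Benjamini-Hochberg adjustment over both.

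**Figure D4:**
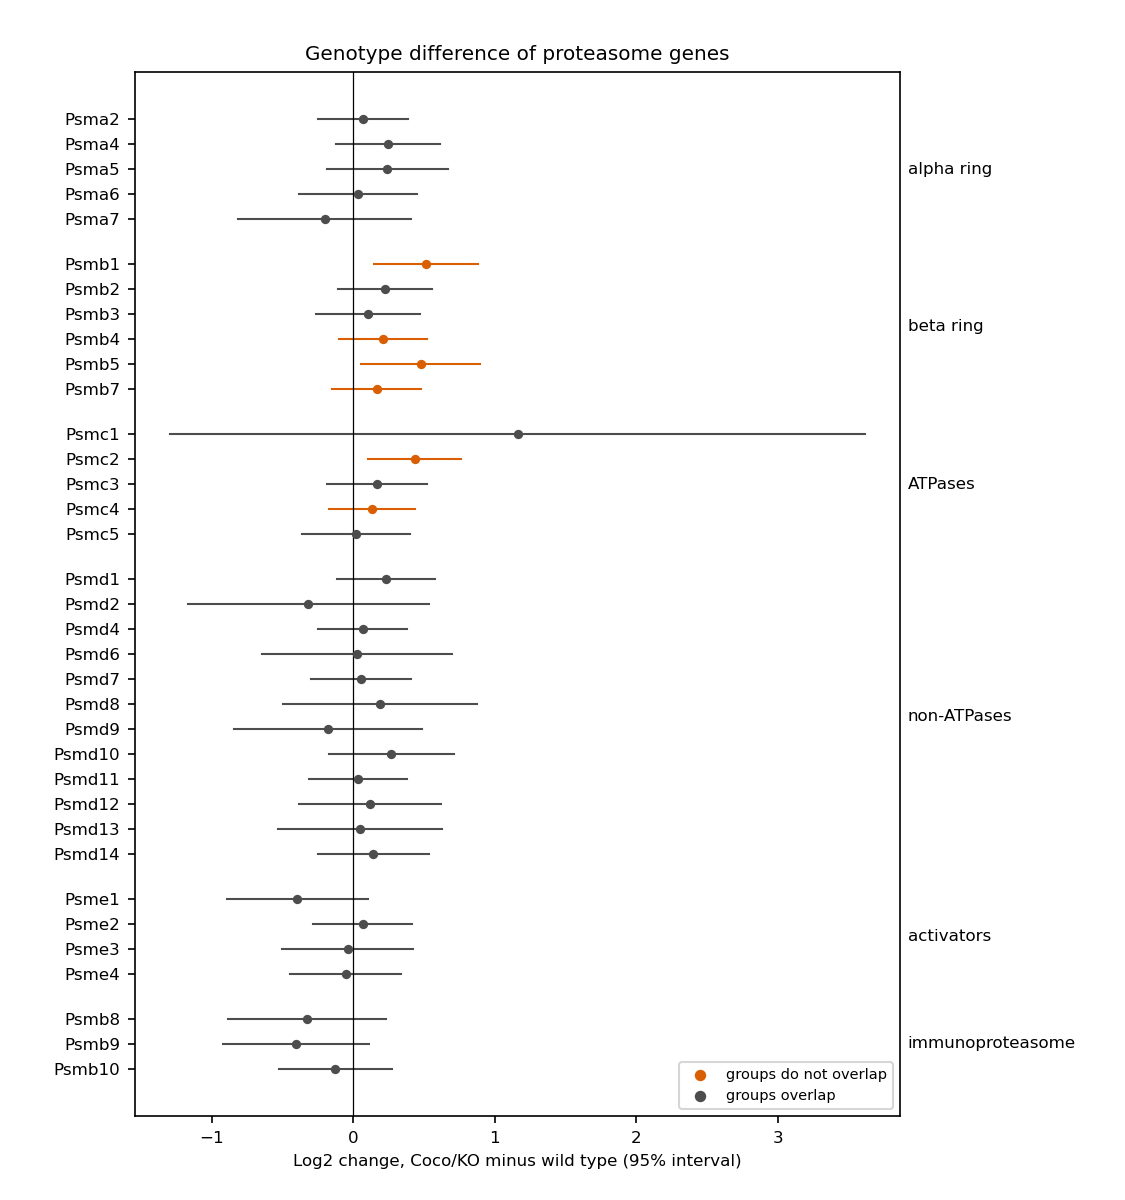
Log2 change of each tested proteasome gene, and of the 3 immunoproteasome genes, in Coco/KO relative to wild type (horizontal axis) with its 95% interval from limma. Orange marks genes whose 3 Coco/KO arrays all lay above the 3 wild-type arrays. The intervals of Psmb1, Psmb5 and Psmc2 lie above 0 before adjustment, and the interval of Psmc1, from -1.29 to 3.62, is the widest.

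Other genes of the pathway gave no call either. Of the 4 assembly factors tested 0 passed in limma, 3 had a positive log2 change, and the median was 0.18. Pomp, the maturation factor of the core particle, had log2 signals of 12.98, 13.03 and 12.69 in wild type and 13.24, 13.44 and 13.10 in Coco/KO, without overlap and with a change of 0.36 (SE 0.16, limma adjusted p = 0.623). Psmg3, a chaperone of the α ring, had 0.30 (SE 0.22). Of 11 proteasome-bound factors 0 passed, 5 had a positive and 6 a negative log2 change, and the median was -0.0081. The lid component Sem1 had a log2 change of 0.09 (SE 0.14). Of 7 regulators of proteasome genes 0 passed, 4 had a positive and 3 a negative log2 change, and the median was 0.06. Among the 7 were Mafk (0.49, SE 0.27), a small Maf partner of the NFE2L factors, their inhibitor Keap1 (-0.16, SE 0.18) and Nfe2l1 itself (0.14, SE 0.25). Of 8 genes of ubiquitin and its activation 0 passed, 5 had a positive and 3 a negative log2 change, and the median was 0.05. The values were 0.22 (SE 0.14) for Nsfl1c, a cofactor of the segregase VCP, and 0.26 (SE 0.28) for Ufd1. In these 4 lists 0 members had an unadjusted p under 0.05. Among all genes 50.3% had a positive log2 change. The immunoproteasome list with its antigen-presentation genes had 7 of 7 tested members negative and 0 called, with 0 at an unadjusted p under 0.05, a median of -0.32 and a value of -0.37 (SE 0.17) for the class I molecule H2-D1.

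The ubiquitin ligases of muscle wasting, which mark proteins for the proteasome, had mostly negative values, with 6 of 9 tested negative, 3 positive and a median log2 change of -0.41. In limma 0 passed, and 4 were lower at an unadjusted p under 0.05, where 4.22% of all genes were. Of the 9, 3 separated downwards, where 6.58% of all genes did, namely Nedd4, Fbxo32 and Asb2. Nedd4, matched through a synonym of the target's name, had log2 signals of 7.43, 7.98 and 7.87 in wild type and 6.79, 7.37 and 7.08 in Coco/KO, with a change of -0.68 (SE 0.21, adjusted p = 0.404). Fbxo32, the muscle ligase atrogin, had 8.93, 9.47 and 8.94 in wild type and 8.13, 8.71 and 8.43 in Coco/KO, with a change of -0.69 (SE 0.21, adjusted p = 0.406). Asb2, a muscle ligase subunit named here after its value was seen, had a change of -0.49 (SE 0.16, adjusted p = 0.430). Fbxo32 was not detected on Coco/KO array 1.

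Whole muscle holds several cell types, and in bulk RNA fewer cells of a type and less RNA per cell cannot be told apart. Markers of macrophages and leukocytes lay higher in the same Coco/KO samples, with 14 of 15 tested markers positive, where 50.3% of all genes were, and a median log2 change of 0.68. In limma 0 of these markers were called, and 6 were higher at an unadjusted p under 0.05, where 4% of all genes were. Their summed intensity was 3870 to 5201 units in wild type and 5332 to 17648 in Coco/KO, and the defining markers Ptprc and Cd53 were detected on no array. Interferon response genes did not follow, with 3 of 5 positive, a median of 0.02 and summed intensities of 325.4 to 388.6 units in wild type and 253.9 to 324.7 in Coco/KO, and with Ifit1 and Mx1 detected on no array. Adipocyte markers lay lower, with 6 of 7 negative, a median of -0.76 and summed intensities of 28856 to 60511 in wild type and 26884 to 36176 in Coco/KO, and Plin1 was detected on no array. Of these 7, 3 were lower and 1 higher at an unadjusted p under 0.05, where 4.22% and 4% of all genes were. Of the 8 slow fibre markers 7 were positive, with a median of 0.05 and 1 higher at an unadjusted p under 0.05. All 8 fast fibre markers were negative, with a median of -0.21 and 2 lower at that level. All 5 smooth muscle and pericyte markers tested were negative, with a median of -0.29 and 2 lower at that level. Positive values were found for 4 of 8 fibroblast and tendon markers, with 2 lower at that level, and Col1a1 was detected on no array. Of the 5 endothelial markers 2 were positive, with 0 at that level. No marker of these lists was called. The part of these cell types in the values of the proteasome genes was not tested.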

How the data were processed

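RNA of 6 soleus pools was measured on an Illumina mouse whole-genome beadchip. The deposited table was exported from BeadStudio 3.2.6 without normalization, per the file headers, and gives for each target an intensity, the SD and number of the beads behind it, and a detection score. A background level had been subtracted, since 30.1% to 32.9% of the values per array are 0 or negative. The deposited detection score is a fraction from 0 to 1, read from its values as 1 minus the detection p-value. The submitters' processing notes also name limma.

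A constant of 42.7 was added so that the lowest value was 1, then an offset of 16, which understates the changes of dim genes, and log2 values were quantile normalized. The test covered the 12611 targets detected (detection p under 0.05) on 3 or more of 6 arrays. Names were updated with RefSeq symbols of GRCm38.p6, which matched 22815 of 34492 targets, and the brightest target stood for a gene, giving 12135 genes. The genotype comparison used limma (version 3.58.1, R 4.3.3), with Benjamini-Hochberg adjustment over all targets tested, and single genes also with exact permutation tests. The fit was tested on simulated data. Samples were grouped by their titles.

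Members and gene lists were chosen with earlier results of these data known. Genes were named by a fixed rule: all members past the threshold, the 4 of lowest p in each class, the catalytic subunits, the ubiquitin receptor, the deubiquitinase, the assembly chaperones, members below background and 2 genes of lowest p in each other list. Genes named beyond it, such as Psma6, Psmb3, Psmc5, Psmd6, Psmd8, Psmd13 and Nfe2l1, were chosen after their values were seen. Promoter sequences came from RefSeq. Alternatives covered background, offset, normalization, filter, array weights, variance model, chip position, a block for the replicate number, threshold and each array left out. The deposited table of normalized values was not used, because its probes are not paired with genes here. The values of 1 gene that this rule selects are not reported here.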

Additional observations from a re-analysis of the deposited data

How the results depend on the processing

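Under all 21 alternatives, 1 of them chosen after seeing the data (a target also counted as detected by an intensity over 100 units), 0 proteasome genes were called. The core median stayed between 0.14 and 0.24 and the median over the members between 0.07 and 0.17. The count of all genes called was 18, and it was 2 with modelled background, 9 with an offset of 50, 5 with median scaling, 5 without normalization between arrays, 9 with detection on all 6 arrays, 11 with chip position in the model and 5 to 27 with 1 array left out. The regulatory median of 0.12 became 0.18 with chip position, 0.0678 with the filter by score or signal and 0.0617 to 0.15 with 1 array left out. The difference of core and regulatory medians, 0.09, became 0.0091, 0.15 and -0.0026 to 0.12 under the same settings. Signs turned for members with values near 0 or decided by 1 array. Psma7 was 0.021 with chip position. With 1 array left out, Psma7 ranged from -0.39 to 0.13, Psmd2 from -0.65 to 0.18, Psmd9 from -0.47 to 0.0525, Psme2 from -0.0205 to 0.15, Psme3 from -0.22 to 0.0773 and Psme4 from -0.13 to 0.0922. The cause of these shifts was not tested. The replicate numbers name different pools of mice and were not taken as pairs. Deviations from the group mean correlated at -0.04, -0.29 and 0.09 between same-numbered pools and at -0.21 to 0.27 between the others. Such deviations sum to 0 within a group, so these values cannot decide whether pools were paired. With the replicate number as a block, 13 genes and 0 members were called. Signal over background limits Psma6, the tested member of lowest mean intensity, at 10.7 to 34.6 units. Psmd2 and Psmd9 were dim as well.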
